A study of Mus musculus with 33 samples.

Results

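The 10 genes described here encode the machinery with which antigen-presenting cells load peptides on MHC class II molecules. They were taken by symbol from the 56414 rows of a gene table, and each of the 10 had 1 row: H2-Aa, H2-Ab1, H2-Eb1, Cd74, Ciita, H2-DMa, H2-DMb1, H2-Oa, H2-Ob and Ctss. Tumor-free wild-type C57Bl/6 mice were left untreated or drank water with 0.5% nicotinamide (the amide of vitamin B3, here NAM) over 1, 3 or 14 days, and polyadenylated RNA of whole organs was sequenced in 33 libraries. The 20 libraries labelled spleen were 5 from untreated mice and 5 for each duration of NAM. The 13 labelled lymph node were 3 from untreated mice and then 2, 4 and 4 for the durations in that order. The mice carried no allele or transgene according to the labels, and whether an animal gave both organs or whether animals were pooled is not given in the sources used here, so the p-values below measure the spread between libraries, which may be technical.

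MHC class II molecules are pairs of an alpha and a beta chain that display peptides from endosomes to CD4+ T cells. The chains assemble with the invariant chain, encoded by Cd74, which blocks the peptide groove until endosomal proteases such as cathepsin S (Ctss) degrade it. The H2-M heterodimer (H2-DMa with H2-DMb1 or H2-DMb2) then removes the last invariant chain fragment and edits the peptides, and the H2-O heterodimer (H2-Oa with H2-Ob) holds H2-M back, mainly in B cells. Ciita encodes the coactivator that is recruited to the X and Y boxes of class II promoters and is needed for transcription of the class II chain genes. In spleen and lymph nodes the genes are expressed mostly by B cells, dendritic cells and macrophages. C57BL/6 mice make no H2-E alpha chain because the promoter of its gene is deleted, so the product of H2-Eb1 has no partner.

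The promoters of chain genes are shown first because 5 of them hold the same layout of boxes. Of the members, 7 lie on chromosome 17 between bases 34092340 and 34316674 of mm10, and 7 of the 10 have promoter windows in the RefSeq table used here (GRCm38.p6, 250 bases before to 50 bases after each start). H2-Ab1, Cd74 and Ciita had no entry. Ciita lies on chromosome 16, Cd74 on 18 and Ctss on 3. The letters GATTGG, the core of the Y box bound by NF-Y, were searched on both strands and lay in the windows of 6 of the 7 members, against 16.1% of all 32851 windows. The letters GNAAC, which hold the conserved end of the X box bound by RFX, were then searched 5′ of GATTGG on the same strand, with 20 to 45 bases between the first letters of each. That layout was found in 5 of the 7 members and in 1.45% of all windows. The 5 stretches follow, with these letters in capitals, read 5′ to 3′ on the strand of the gene.
H2-Aa, chr17:34287855-34287916, minus strand: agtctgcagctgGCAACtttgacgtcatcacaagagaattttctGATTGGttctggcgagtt
H2-Eb1, chr17:34305764-34305824, plus strand: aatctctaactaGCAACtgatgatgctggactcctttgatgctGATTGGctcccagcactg
H2-DMb1, chr17:34153085-34153146, plus strand: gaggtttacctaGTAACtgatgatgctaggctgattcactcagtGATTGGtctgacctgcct
H2-Oa, chr17:34092291-34092352, plus strand: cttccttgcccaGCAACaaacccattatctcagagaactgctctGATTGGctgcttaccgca
H2-Ob, chr17:34238806-34238864, plus strand: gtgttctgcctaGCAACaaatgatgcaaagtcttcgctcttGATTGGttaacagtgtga
The first letters of the 2 boxes stood 32 bases apart in H2-Aa, H2-DMb1 and H2-Oa, 31 apart in H2-Eb1 and 29 apart in H2-Ob. GATTGG began 44 bases before the annotated start in H2-Oa, 49 in H2-Aa, 58 in H2-Ob, 60 in H2-Eb1 and 62 in H2-DMb1. H2-DMa held GATTGG in 1 of its 2 windows without the GNAAC letters, and the window of Ctss held neither. A match of letters is a description of the sequence, and the 2 patterns overlap because each GNAAC match counted here includes a GATTGG.

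Libraries labelled spleen held 18325061 to 54830743 reads and those labelled lymph node 30424968 to 46733974. The tissue labels went against their markers in all 33 libraries. Glycam1, a mucin made by the high endothelial venules of lymph nodes, stood at 108167 to 214210 normalized counts (reads divided by a size factor of the library) in those labelled spleen and at 1.59 to 12.4 in those labelled lymph node. Spic, a regulator of red pulp macrophages in the spleen, stood at 774 to 1295 and at 6117 to 10491. The sets are therefore named by their label only. Within the spleen label, the second principal component held 13.6% of the variance and set the 5 libraries at 1 day and 4 of 5 at 3 days, with scores of 11.1 to 32.9, apart from all untreated and 14-day libraries and replicate 1 at 3 days, with scores of -38.0 to -7.52. The labels name no batch, so treatment and this split of the libraries cannot be told apart. Within the lymph node label, replicate 1 at 1 day, 1 of the 2 libraries of its group, stood apart on the first component (18.1% of the variance) with a score of 65.0, against -18.5 to 6.14 in the other 12.

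The invariant chain and the classical class II chains were among the most abundant mRNAs of both sets, and their regulator was among the least abundant members. Levels of different genes were compared as normalized counts per kb of exon. In untreated libraries labelled spleen, Cd74 had 111631 ± 19787 (SD, n = 5) and ranked 5 of 14156 genes with a length. H2-Aa followed with 63859 ± 9712, H2-Ab1 with 36264 ± 6485 and H2-Eb1 with 29734 ± 4747. The ranges of H2-Ab1 and H2-Eb1 overlapped, although H2-Ab1 was above H2-Eb1 in each of the 5 libraries. Ctss had 18040 ± 2678, H2-Oa 4826 ± 839, H2-DMa 3303 ± 587 and H2-Ob 1332 ± 60.3. H2-DMb1 had 767 ± 50.2 and Ciita 673 ± 64.6, and these last neighbours also overlapped. The other beta chain gene of H2-M, H2-DMb2, had 6584 ± 1003, so most reads for the H2-M beta chain came from H2-DMb2 rather than H2-DMb1.

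In untreated libraries labelled lymph node the order began with H2-Aa, at 141947 ± 5008 per kb (SD, n = 3), followed by Cd74 at 99821 ± 3217, H2-Eb1 at 55089 ± 1242 and H2-Ab1 at 39402 ± 1061. From Ctss, at 23059 ± 439, to Ciita, at 576 ± 31.3, the order was the same as under the spleen label, and no neighbours overlapped. The sets were scaled separately, so a level set across them carries that limit. H2-Ea-ps, the row of the H2-E alpha chain gene, had at most 3 reads in any library labelled spleen and at most 5 in any labelled lymph node.

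**Figure D1:**
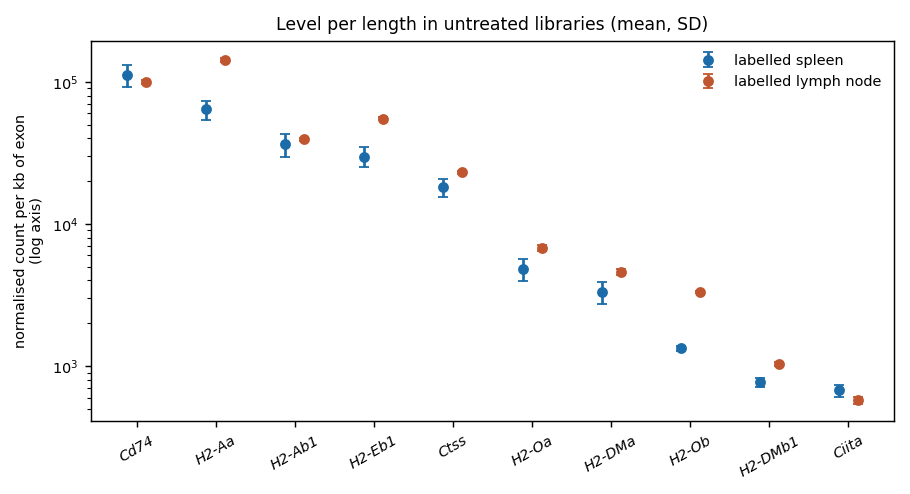
Mean normalized count per kb of exon (log axis, whiskers are SD) of the 10 genes in untreated libraries, 5 labelled spleen (blue) and 3 labelled lymph node (orange). Cd74 stands highest under the spleen label at 111631 and H2-Aa under the lymph node label at 141947, and Ciita is lowest in both, at 673 and 576.

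NAM was compared with no treatment within each label, which asks whether the vitamin moved the class II machinery of these organs. H2-Oa was the only member whose change passed the threshold of the limma test described next in any of 9 comparisons, and it was lower at 1 day under the spleen label. The test was limma on log2(normalized count + 1) with Benjamini-Hochberg adjustment over all tested genes at 0.05, and all 10 members passed the filter on low values. At 1 day under the spleen label 1 of 10 members was called, beside 16.6% of the 18243 genes tested, and 3 of 10 had an unadjusted p under 0.05, beside 5628 of all 18243. At 3 days 0 of 10 were called, beside 5.55%, and 2 of 10 had an unadjusted p under 0.05, beside 4007 of 18243. At 14 days 0 of 10 were called, beside 0.00% of all genes (0 genes by limma and edgeR and 1 by DESeq2, with 510 at an unadjusted p under 0.05), and no member had an unadjusted p under 0.05. Under the lymph node label 0 of 10 were called at 1 day (beside 1.21%), at 3 days (beside 1.24%) and at 14 days (beside 0.791%), with 1, 3 and 0 members at an unadjusted p under 0.05, beside 2726, 2694 and 2157 of 18215 genes. edgeR called the same number of members as limma in each comparison. DESeq2 also called H2-Oa at 1 day, and it called 2 members, H2-DMb1 and H2-Oa, at 3 days under the spleen label, beside 3368 and 1614 of all 18243 genes. With library weights in limma 2 members were called at 1 day (H2-Aa and H2-Ob, both higher) and 4 at 3 days (these and H2-DMb1 and H2-Oa), beside 3932 and 4722 genes.

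Under the spleen label the median log2 change of the 10 members was -0.10, -0.14 and 0.00 for the durations in turn, beside medians of all tested genes of 0.01, 0.00 and 0.00. The medians under the lymph node label were 0.13, 0.12 and 0.05, beside 0.00 each time. At 1 and at 3 days 7 of 10 members were below 0 under the spleen label, while 7 of 10 and then 9 of 10 were above 0 under the lymph node label. With library weights H2-Ab1, Cd74 and Ctss at 1 day and Cd74 at 3 days lay above 0 under the spleen label. Members varied together between libraries there (median Pearson r of 0.80 within groups), so these signs are not 10 separate observations. Without replicate 1 of the pair of lymph node libraries at 1 day, H2-Ab1, H2-Eb1 and H2-Oa lay below 0 there, at -0.15, -0.01 and -0.01. In whole organs, fewer cells of a type and less RNA per cell cannot be told apart.

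**Figure D2:**
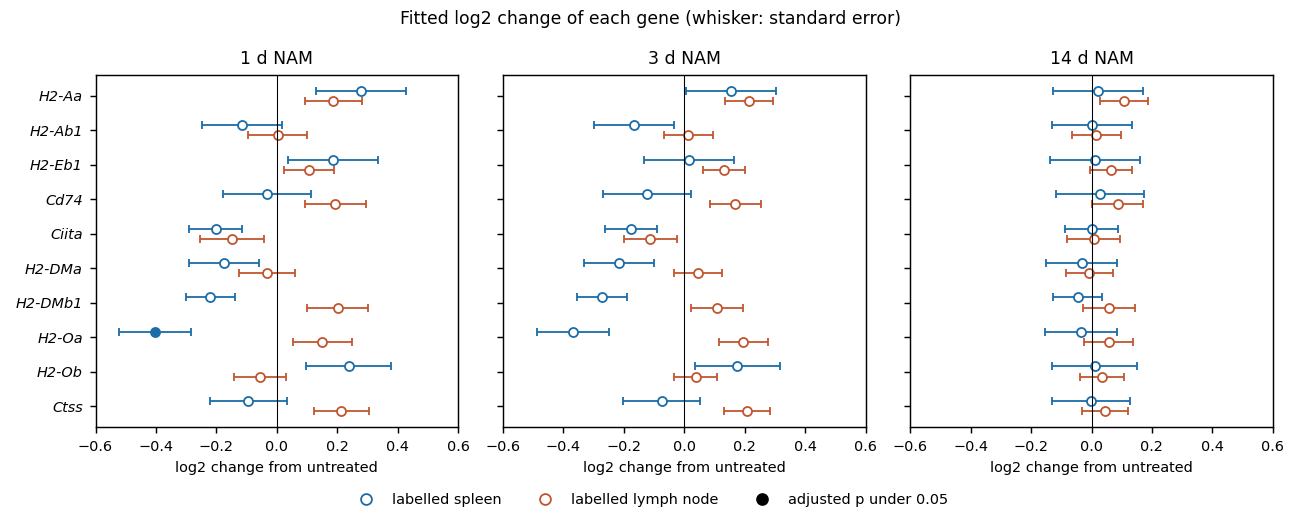
Fitted log2 change from untreated of each of the 10 genes at 1, 3 and 14 days of NAM (whiskers are standard errors), libraries labelled spleen in blue and lymph node in orange. The filled point, H2-Oa at 1 day under the spleen label at -0.40, is the only one with an adjusted p under 0.05, and at 14 days every point lies between -0.05 and 0.11.

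Among the peptide-binding chains, H2-Aa and H2-Ab1 encode the partners of the H2-A molecule. H2-Aa had 83906, 63452, 84113, 65186 and 63508 normalized counts in the untreated libraries labelled spleen, and 86621, 74343, 100165, 82637 and 91635 at 1 day. The ranges overlapped, with 3 of 5 treated libraries above every untreated one. The log2 change was 0.28 (SE 0.15) with a limma adjusted p of 0.209. At 3 days H2-Aa had 54571, 86347, 80080, 100900 and 83456 normalized counts, the lowest being replicate 1. The log2 change was 0.16 (SE 0.15), and it ran from 0.07 without replicate 4 to 0.29 without replicate 1. With library weights H2-Aa was called higher, at 0.42 at 1 day and 0.32 at 3 days. H2-Ab1 had 52949, 38167, 52128, 37550 and 38967 untreated, and 38452, 34850, 44034, 34712 and 50628 at 1 day. Those ranges overlapped almost wholly, and the log2 changes of H2-Ab1 were -0.11 (SE 0.13) at 1 day and -0.17 (SE 0.13) at 3 days. With single libraries left out they ran from -0.20 to -0.04 and from -0.23 to -0.09. H2-Eb1, the beta chain without a partner in this strain, had 43060 to 58513 untreated and 48265 to 68261 at 1 day, with log2 changes of 0.19 (SE 0.15) and 0.02 (SE 0.15). The sign of the second turned when single libraries were left out.

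Cd74 encodes the invariant chain. It had 188600, 136202, 188794, 140626 and 136128 normalized counts in the untreated libraries labelled spleen and 127579 to 177424 at 1 day. The untreated libraries split into 2 high and 3 low ones, a gap wider than the log2 change of -0.03 (SE 0.15) at 1 day or -0.12 (SE 0.15) at 3 days, both of which turned above 0 with library weights. Cd74 shares its row with Mir5107. The same untreated libraries, replicates 1 and 3, were the highest for H2-Aa, H2-Ab1, H2-Eb1, H2-DMa, H2-Oa and Ctss. They stood apart on the first principal component of the spleen label (30.1% of the variance), with scores of -62.5 and -55.6 against 9.80 to 24.0 in the other untreated libraries, while replicates 2 and 4 had the highest scores at 1 day, 74.3 and 28.2.

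The H2-M genes, which encode the peptide editor, had negative changes at 1 and 3 days under the spleen label. H2-DMb1 had 1200, 1047, 1068, 1050 and 1022 normalized counts untreated, 962, 836, 1010, 826 and 1000.2 at 1 day, and 805, 938, 892, 963 and 866 at 3 days. Every library at 1 and 3 days was below every untreated one. The log2 change was -0.22 (SE 0.08) with a limma adjusted p of 0.0727 at 1 day and -0.27 (SE 0.08) with 0.0556 at 3 days, so neither passed. H2-DMb1 was the only member whose libraries did not overlap the untreated ones, at 1 day (1 of 10, beside 11.9% of all tested genes) and at 3 days (1 of 10, beside 5.06%), and at 14 days 0 of 10 did so (beside 0.548%). H2-DMa, the shared alpha chain, had 7471 to 10658 normalized counts untreated and 6931 to 8570 at 1 day, with log2 changes of -0.17 (SE 0.12) and -0.22 (SE 0.12). H2-DMb2, which is no member but encodes the more abundant beta chain, was lower at 1 day with a log2 change of -0.36 (SE 0.11, limma adjusted p = 0.0354), and had -0.30 (adjusted p = 0.113) at 3 days. H2-DMb1 and H2-DMb2 are near copies, so reads could be split between them in counting.

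The H2-O genes encode the inhibitor of H2-M, and their log2 changes had opposite signs. H2-Oa had 6412, 4380, 6048, 4682 and 4732 normalized counts in the untreated libraries labelled spleen and 4015, 3308, 4459, 3437 and 4554 at 1 day. The 2 highest libraries at 1 day were above the lowest untreated one. H2-Oa fell by 0.40 on the log2 scale (SE 0.12, limma adjusted p = 0.0252), from 5251 ± 913 to 3955 ± 571 normalized counts (SD, n = 5 each). The call was lost without untreated replicate 1 or 3 or without replicate 2 or 4 at 1 day, with adjusted p of 0.0639 to 0.0747, when only these 2 groups were fitted (0.0625), and with library weights (0.107). At 3 days H2-Oa had 3976, 4224, 3375, 4564 and 4059 normalized counts, a log2 change of -0.37 (SE 0.12) with an adjusted p of 0.0713, and at 14 days it had 4456 to 5633. H2-Ob had 4723, 4361, 4858, 4864 and 4578 normalized counts untreated and 6309, 4256, 5992, 4983 and 6350 at 1 day. At 1 day 4 of 5 libraries were above every untreated one and replicate 2 was below, and the log2 change was 0.24 (SE 0.14, adjusted p = 0.260). At 3 days replicate 1, at 3479, was the lowest of the 20 libraries and the other 4 held 5287 to 6161, for a log2 change of 0.18 (SE 0.14). Exons of H2-Oa overlap those of BC051537, and without a stated strand the reads of the pair cannot be told apart.

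Ciita, the class II coactivator, had 5271, 4989, 5216, 6093 and 6126 normalized counts in the untreated libraries labelled spleen and 5327, 4013, 4898, 5098 and 4748 at 1 day. The groups overlapped, and the log2 change was -0.20 (SE 0.09) with a limma adjusted p of 0.116. At 3 days it was -0.18 (SE 0.09). Exons of Ciita overlap those of Dexi, so the same limit holds for its reads. Ctss, the protease, had 21106 to 28658 normalized counts untreated and 17670 to 28160 at 1 day, with log2 changes of -0.09 (SE 0.13) and -0.07 (SE 0.13). With single libraries left out they ran from -0.17 (without replicate 5 at 1 day) to -0.00296 (without replicate 2) and from -0.13 (without untreated replicate 5) to -0.02 (without untreated replicate 3). At 14 days, with the water still holding NAM, the 10 members had log2 changes between -0.05 and 0.03 under the spleen label.

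**Figure D3:**
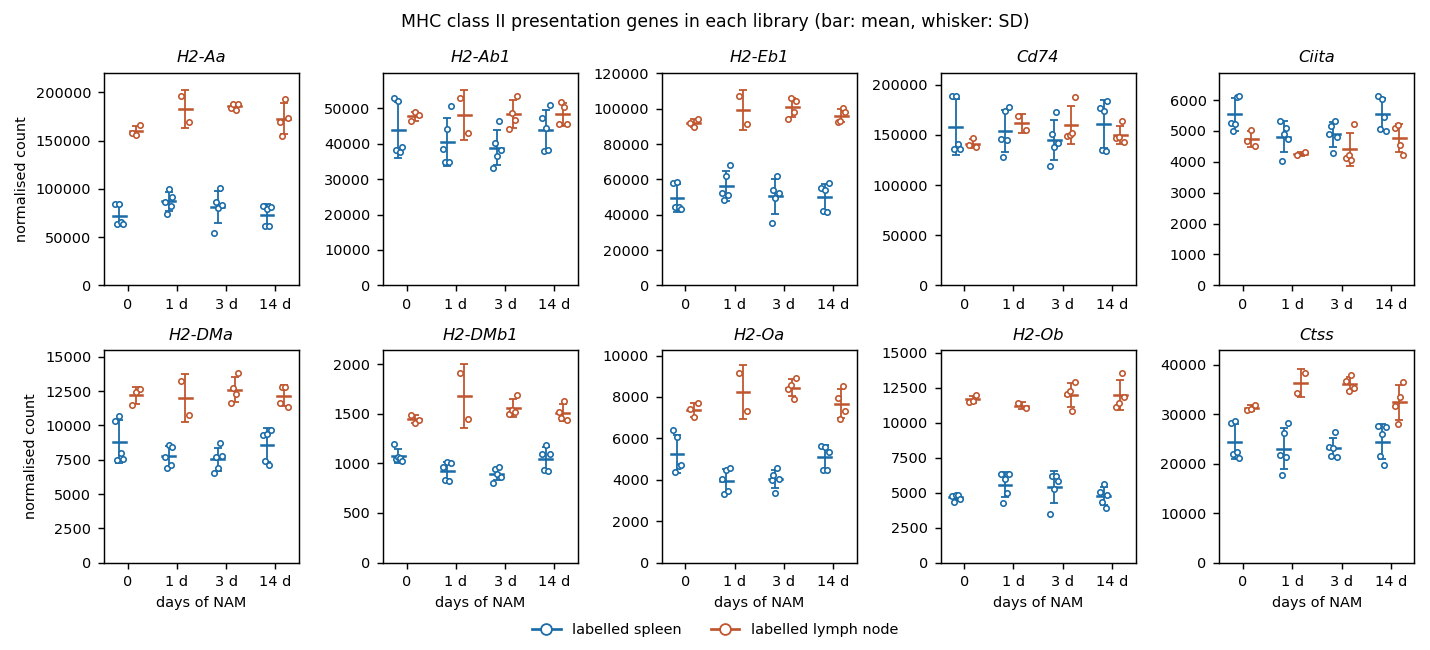
Normalized count of each gene in each library, untreated (0) and after 1, 3 and 14 days of NAM, with the spleen label in blue and the lymph node label in orange (bars are means, whiskers SD). H2-Oa and H2-DMb1 have their lowest blue means at 1 and 3 days, and the blue untreated libraries of Cd74 split into 2 at 188600 and 188794 and 3 at 136128 to 140626.

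Markers of the cell types that express class II genes were counted beside these values under the spleen label, and the summed levels of the B cell, macrophage and dendritic cell lists overlapped those of untreated libraries at 1 day. At 1 day 4 of 13 rows of B cell markers were called lower (both rows of Pax5, Fcer2a and Ebf1) and none higher, beside 1468 lower among all 18243 genes, and the summed normalized count of 12 of these rows was 64295 to 89779 at 1 day against 80643 to 100935 untreated. The row of Ighm was left out of the sum because other immunoglobulin genes share it, and no B cell marker was at 0 in any library. Of 10 macrophage markers Cd68 was called lower and Vcam1 higher at 1 and at 3 days, beside 16.6% and 5.55% of all genes called, with the sum at 34316 to 47511 at 1 day against 39510 to 51898. Of 9 markers of conventional dendritic cells, which carry much class II protein, 0 were called at 1 day, with the sum at 15844 to 23460 against 16651 to 23252, and Xcr1 and Clec9a were called lower at 3 days, beside 499 of all genes lower. The 8 adipocyte markers all had log2 changes above 0 at 1 day and 1 was called higher, beside 1562 higher of all 18243 genes. Their sum was 130461 to 556662 at 1 day against 39194 to 213482 untreated. Of 10 T cell markers 1 was called lower at 1 day, beside 1468 lower, with the sum at 44820 to 82546 against 58706 to 84643. Libraries at 3 days held 43632016 to 54830743 reads, against 18325061 to 31486631 untreated. The part of these values in the results above was not tested.

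In the libraries labelled lymph node, H2-Aa had 158466, 155476 and 166406 normalized counts untreated, 196407 and 168936 at 1 day and 184170, 187912, 182090 and 188191 at 3 days, all 6 treated values being above the untreated range. The log2 change was 0.19 (SE 0.09, adjusted p = 0.365) at 1 day, or 0.08 without replicate 1 and 0.30 without replicate 2, and, at 3 days, 0.21 (SE 0.08) with an unadjusted p of 0.0150 and an adjusted p of 0.214 by limma. Ctss had 30834, 31127 and 31982 untreated, 34384 and 38338 at 1 day and 36704, 34775, 37899 and 35375 at 3 days. Each of these 6 treated libraries was above the untreated ones, and the log2 changes were 0.21 (SE 0.09, adjusted p = 0.279) and 0.21 (SE 0.08, adjusted p = 0.208). With single libraries left out the change of Ctss at 1 day ran from 0.14 to 0.29. H2-Oa had 7397, 7019 and 7702 untreated and 8385, 8588, 7910 and 8894 at 3 days, with a log2 change of 0.20 (SE 0.08, adjusted p = 0.276). Its direction there was thus opposite to that under the spleen label.

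Members without overlap at 3 days numbered 6 of 10 (H2-Aa, H2-Eb1, Cd74, H2-DMb1, H2-Oa and Ctss), each with all treated libraries above the untreated ones, beside 15.3% of all tested genes that did not overlap. At 1 day, with 2 libraries, the count was 5 of 10 beside 32.6%, H2-Aa, Cd74 and Ctss being above and Ciita and H2-Ob below. At 14 days it was 0 of 10 beside 11.5%. The remaining log2 changes at 1 and 3 days were 0.19 (SE 0.10) and 0.17 (SE 0.08) for Cd74, the second being 0.09 without replicate 4, and 0.11 (SE 0.08) and 0.13 (SE 0.07) for H2-Eb1. H2-Oa had 0.15 (SE 0.10) at 1 day. The changes of H2-Ab1 were 0.00 (SE 0.10) and 0.01 (SE 0.08), and the sign of the first turned with another scaling. H2-DMb1 had 0.20 (SE 0.10) and 0.11 (SE 0.09), the first resting on replicate 1 (1909 normalized counts, against 1448 in replicate 2 and 1411 to 1490 untreated) and being 0.00 without it. The values were, for H2-DMa, -0.03 (SE 0.09) and 0.05 (SE 0.08), and for H2-Ob -0.06 (SE 0.09) and 0.04 (SE 0.07). Ciita had -0.15 (SE 0.11) and -0.11 (SE 0.09), and the second ran from -0.20 without replicate 4 at 3 days to -0.07 without untreated replicate 2. At 14 days the 10 members lay between -0.01 and 0.11.

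Red cell transcripts were lower at 3 days, when 6 of 9 erythroid markers were called lower, beside 165 of all 18215 genes tested. Their summed normalized count was 1453201 to 3060021 untreated, 994516 to 2140978 at 1 day and 320911 to 1388591 at 3 days. It was 794060 to 1187430 at 14 days, also below every untreated library, when 1 of 9 was called lower, beside 124 of all 18215 genes. At 1 day 3 of 10 macrophage markers, C1qa, C1qb and C1qc, were called higher, beside 161 of all 18215 genes, with the sum of the list at 159698 to 167142 against 123940 to 124569. Of 10 T cell markers 0 were called then, although their sum, 41422 to 43834, was above the 36034 to 38622 of untreated libraries. No macrophage, B cell or T cell marker was at 0. The part of these values in the results was not tested.

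Under the spleen label, libraries of a group differed by a factor that most members shared. The chains of each heterodimer were therefore also compared, under both labels, as a ratio within a library, which no scaling of libraries can move. These ratios were chosen after the values had been seen, and 24 were tested (4 pairs of chains, 3 times, 2 labels). Under the spleen label the H2-Aa/H2-Ab1 ratio was 1.58, 1.66, 1.61, 1.74 and 1.63 in untreated libraries and 2.25, 2.13, 2.27, 2.38 and 1.81 at 1 day. No library at 1 day overlapped the untreated ones, and the log2 change was 0.39 (SE 0.07). At 3 days the ratio was 1.64 in replicate 1 and 2.15, 2.19, 2.17 and 2.19 in the others, and at 14 days it was 1.60 to 1.77, overlapping the untreated range. The change of the H2-Oa/H2-Ob ratio had the other sign. The ratio was 1.36, 1.00, 1.24, 0.963 and 1.03 untreated and 0.636, 0.777, 0.744, 0.690 and 0.717 at 1 day, a log2 change of -0.64 (SE 0.11) without overlap. At 3 days it was 1.14 in replicate 1 and 0.638 to 0.741 in the other 4, and at 14 days it was 0.996 to 1.14.

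Each of these ratios, and H2-DMa/H2-DMb2 (0.720 to 0.790 untreated, 0.835 to 0.943 at 1 day), had an exact two-sided permutation p of 0.00794 at 1 day, the smallest that 5 against 5 libraries allow, and a Benjamini-Hochberg adjusted p of 0.0635 over the 24 tests, so none passed. At that floor the adjusted p is set by the number of tests and ties, not by the size of a change. Tests under the lymph node label count among the 24, though their group sizes allow no p under 0.05. At 3 days the log2 changes were 0.32 (exact permutation p = 0.0238) for H2-Aa/H2-Ab1 and -0.54 (p = 0.0317) for H2-Oa/H2-Ob, and without replicate 1 they were 0.40 and -0.69. That of H2-DMa/H2-DMb2 was 0.09 (exact permutation p = 0.0476). With each of the 10 libraries left out in turn, the unadjusted p at 3 days rose above 0.05 in 8 cases for H2-DMa/H2-DMb2 and in 6 for H2-Oa/H2-Ob. The H2-DMa/H2-DMb1 ratio was 7.13 to 9.98 untreated and 8.02 to 8.57 at 1 day, with a log2 change of 0.05 (SE 0.09). Replicate 1 at 3 days is the library that the second principal component placed with the untreated ones. In all 20 libraries the H2-Aa/H2-Ab1, H2-Oa/H2-Ob and H2-DMa/H2-DMb2 ratios divided along that component.

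Under the lymph node label the H2-Aa/H2-Ab1 ratio was 3.18 to 3.46 untreated and 3.70 and 3.92 at 1 day. It was 3.52 to 4.16 at 3 days, above the untreated range, and 2.99 to 3.85 at 14 days. The direction at 1 and 3 days was the same as under the spleen label. The H2-Oa/H2-Ob ratio was 0.607 to 0.645 untreated, 0.662 and 0.804 at 1 day and 0.691 to 0.730 at 3 days, the opposite direction. The H2-DMa/H2-DMb1 ratio was 7.71 to 8.82 untreated, 6.92 and 7.42 at 1 day and 7.77 to 8.28 at 3 days. The H2-DMa/H2-DMb2 ratio was 0.691 to 0.776 untreated, 0.678 and 0.686 at 1 day and 0.651 to 0.704 at 3 days, so its sign was opposite to that under the spleen label. With 3 against 4 libraries the smallest exact permutation p was 0.0571, which H2-Aa/H2-Ab1 and H2-Oa/H2-Ob had at 3 days, and with 3 against 2 it was 0.2. The untreated sets themselves did not overlap in these ratios, H2-Aa/H2-Ab1 being higher and H2-Oa/H2-Ob lower in the lymph node set.

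**Figure D4:**
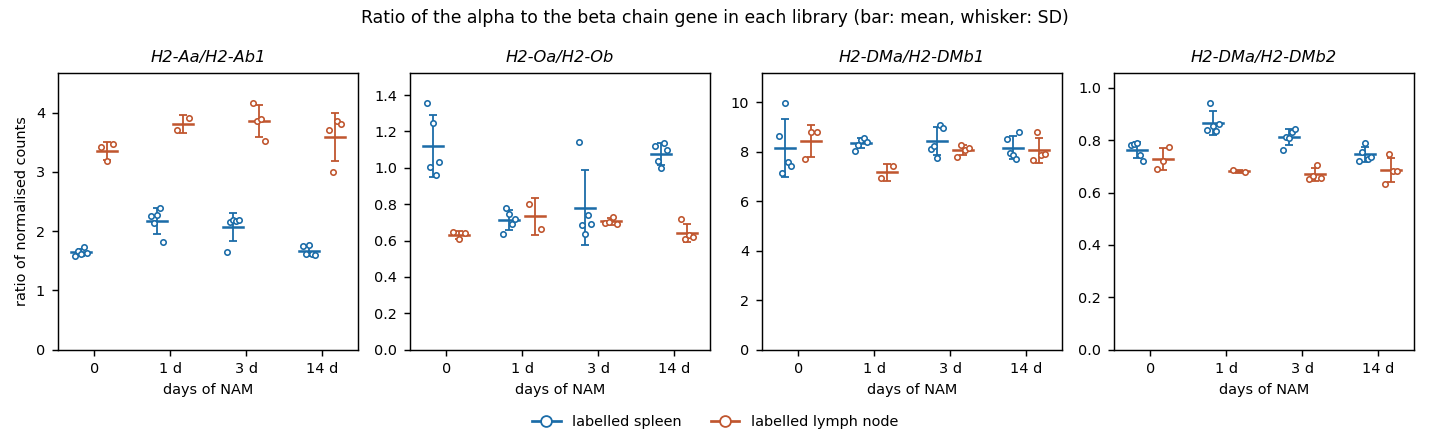
Ratio of normalized counts of the alpha chain gene to the beta chain gene in each library, untreated (0) and after 1, 3 and 14 days of NAM, spleen label in blue and lymph node label in orange (bars are means, whiskers SD). At 3 days under the spleen label 1 library stands at the untreated level, at 1.64 for H2-Aa/H2-Ab1 and 1.14 for H2-Oa/H2-Ob.

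The GC content of the longest coding transcript differs within these pairs. It is 51.0% for H2-Aa and 57.3% for H2-Ab1, 56.2% for H2-Oa and 46.0% for H2-Ob, and 55.1% for H2-DMa, 53.8% for H2-DMb1 and 52.9% for H2-DMb2. Over 13229 tested genes with a transcript, the median log2 change at 3 days under the spleen label ran from 0.07 in the fifth of genes with the lowest GC to -0.09 in the fifth with the highest, and at 1 day from 0.07 to -0.04. Over 12934 genes in the lymph node set these medians were 0.01 and 0.01 at 1 day and 0.01 and 0.00 at 3 days. The part of GC content in the ratios was not tested.

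Whether a change from untreated differed between the labels was tested as an interaction. The fit treated libraries of both labels as independent, although an animal may have given both organs. At 1 day 0 of 10 members were called, beside 1.69% of 17147 genes, at 3 days 0 of 10, beside 0.735%, and at 14 days 0 of 10, beside 0.140%, with 2, 2 and 0 members at an unadjusted p under 0.05, beside 2930, 2239 and 831 genes. The largest differences belonged to H2-Oa, at -0.55 (SE 0.19, limma adjusted p = 0.107) at 1 day and -0.56 (SE 0.17, 0.0984) at 3 days. H2-DMb1 followed with -0.42 (SE 0.14, 0.101) and -0.38 (SE 0.12, 0.141). The difference of H2-DMb1 at 1 day was -0.22 without lymph node replicate 1 and -0.62 without replicate 2 of that group. In both genes the change under the spleen label was negative and that under the lymph node label positive. DESeq2 called 1 member at 1 day, H2-DMb1, and 1 at 3 days, H2-Oa, beside 588 and 314 of all 17147 genes. The other 8 members differed by -0.31 to 0.29 at 1 day and by -0.29 to 0.14 at 3 days, and at 14 days all 10 lay between -0.10 and -0.01.

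Of 20 rows of other class II pathway genes, 19 were tested, all but H2-Ea-ps. At 1 day under the spleen label 5 were called lower and 2 higher, beside 1468 lower and 1562 higher among all 18243 genes tested. The lower ones were H2-DMb2, the NF-Y subunits Nfya (log2 change -0.39, SE 0.09, limma adjusted p = 0.00603) and Nfyc (-0.39, SE 0.08, 0.00208), the X box factor Creb1 (-0.43, SE 0.12, 0.0202) and the endosomal protease Lgmn (-0.33, SE 0.08, 0.00968). The higher ones were the protease Ctsl (0.31, SE 0.09, 0.0242) and March8 (0.43, SE 0.11, 0.0131), a ubiquitin ligase of a family that drives class II molecules to lysosomes. Ctsl lies outside the rule for named genes and was added after its value was seen. At 3 days Nfya and Nfyc were again lower, at -0.31 and -0.35, and 0 were higher. NF-Y binds the GATTGG letters shown above, but binding was not measured. In the lymph node set 0 were called at 1 day, the cathepsin Ctsh was higher (0.24) and March8 lower (-0.41) at 3 days, and 0 were called at 14 days. In the difference between labels at 1 day Nfyc (-0.54) and Lgmn (-0.56) were called, lower under the spleen label. H2-Eb2 had log2 changes of -0.06 to 0.12 over the 6 comparisons, and none passed.

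Ciita is induced by interferon gamma, in part through Irf1. In a list of 12 inducers and repressors of Ciita, Ifngr1, a chain of the interferon gamma receptor, was called higher at 1 day under the spleen label (log2 change 0.48, SE 0.08, limma adjusted p = 7.39e-04), where 16.6% of all genes were called. At 3 days Ifngr1 was higher (0.36) and Irf8 (-0.33) and Prdm1 (-0.47), a repressor of Ciita in plasma cells, were lower, beside 5.55% of all genes called. In the lymph node set 0 were called at 1 and 3 days. Ifng itself had 12.4 to 41.4 normalized counts in untreated libraries labelled spleen and 28.9 to 62.4 at 1 day, overlapping groups with a log2 change of 0.57 (SE 0.37), and it did not pass in any other comparison. Under the lymph node label it had 91.9 to 122.7 untreated and 51.5 and 81.0 at 1 day, the other direction. Those groups did not overlap, beside 32.6% of all tested genes. Irf1 had log2 changes of -0.08 to 0.10 over the 6 comparisons, and none passed.

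After group means were removed, the 45 pairs of members under the spleen label had a median Pearson r of 0.80 over 20 libraries, from 0.06 for H2-Ab1 with Ciita to 0.97 for Cd74 with H2-DMa. Ciita stood apart there, with r of 0.06 to 0.42 with the other members. Under the lymph node label the median was 0.48 over 13 libraries, from -0.62 for Ciita with Ctss to 0.97 for H2-Ab1 with H2-DMa, and 21 of 45 pairs were over 0.5. With group means kept, the genes whose pattern was most like the mean of H2-Aa, H2-Ab1, H2-Eb1 and Cd74 over the 20 libraries labelled spleen were Eif3f (r = 0.96), Clic1 (0.96), Rps15 (0.95), Rpl8 (0.95) and Rpl32 (0.95), of which Eif3f encodes a subunit of a translation initiation factor and the last 3 encode ribosomal proteins. The mean of the 4 genes had an r of -0.74 with the first principal component, described above. Over the 13 libraries labelled lymph node, also with group means kept, the most alike were Zfp358 (0.89), Fkbp8 (0.89), Mpnd (0.89), Mien1 (0.88) and Aamp (0.87). All points of such an r share the libraries' depth and scaling, and the values are descriptions.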

How the data were processed

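Libraries were grouped by the sample titles. The authors deposited 1 table of normalized read counts per gene, a signal in which reads are divided by a DESeq2 size factor. The labels name STAR 2.4.0 and mm10, and the strand setting is not given in the sources used here. Reads were recovered as whole multiples of a step in each library (tolerance 0.1), for 100.0% of the low nonzero values that were checked. Higher values, such as those of most members, were rounded without this check. Each label was fitted alone with limma 3.58.1 (trend) in R 4.3.3 on log2(value + 1), 4 groups in 1 fit, genes with a mean of at least 10, two-sided, with fold changes on that scale. The interaction used genes tested in both labels. Ratios were tested with exact permutation tests (scipy 1.17.1). Alternatives were a pseudocount of 5, no filter, TMM, 2 groups only, library weights, a replicate block, edgeR 4.0.16 and DESeq2 1.42.0 on recovered reads, an unadjusted p of 0.05 with a fold of 1.5, and each library left out. Exon lengths and GC came from GENCODE M21, which may differ from the annotation counted. The fit was tested on simulated data. All 10 members were named in the text. Of the 2 other lists, H2-Ea-ps, H2-Eb2, H2-DMb2, Ifng and Irf1 were always named, with at most 5 further called genes per comparison, and the 5 most alike genes per label were named. The members and lists were chosen with earlier results of these data known. Each member had at least 595 reads in every library labelled spleen. Untreated replicates 1 and 3 under that label, without either of which H2-Oa was not called at 1 day, were the shallowest of their group. They held 18325061 and 21594590 reads, against 24202527 to 31486631 in the rest of the group. The part of depth in the results was not tested. One gene of these lists is not reported here.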

Additional observations from a re-analysis of the deposited data

Results flagged for a closer look

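In groups of 4 or 5 libraries, 84 sets of values of the 10 genes and of the chain ratios were searched for a library far from the rest of its group, and 7 were found, where chance gives about 1 in 20 sets. In the lymph node set, replicate 4 at 3 days had 187600 normalized counts of Cd74, against 148892 to 151837 in the other 3, and 5215 of Ciita, against 4049 to 4216. Untreated replicate 1 under the spleen label had 1200 of H2-DMb1, against 1022 to 1068. Replicate 1 at 3 days under the spleen label had an H2-Aa/H2-Ab1 ratio of 1.64, against 2.15 to 2.19, and an H2-Oa/H2-Ob ratio of 1.14, against 0.638 to 0.741. In the lymph node set, replicate 2 at 14 days had an H2-Aa/H2-Ab1 ratio of 2.99, against 3.71 to 3.85. Replicate 2 at 1 day under the spleen label had an H2-DMa/H2-DMb2 ratio of 0.943, against 0.835 to 0.864.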

How the results depend on the processing

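The count of members called at 1 day under the spleen label was 1, and it was 2 with library weights (beside 3932 of 18243 genes), 0 when only the 2 groups were fitted, 0 under the unadjusted rule with a fold of 1.5, and 0 to 1 when each library was left out. At 3 days it was 0, and 4 with library weights and 2 by DESeq2. For the difference between labels it was 1 at 1 day by DESeq2, and at 3 days 2 with library weights and 1 by DESeq2. With library weights H2-Aa and H2-Ob were called higher at both times (0.42 and 0.31, then 0.32 and 0.31), H2-Oa was not called at 1 day (-0.26) but was at 3 days (-0.28), and H2-DMb1 was called at 3 days (-0.22). Some signs turned. With library weights, at 1 day, H2-Ab1 moved to 0.0048, Cd74 to 0.11 and Ctss to 0.040, and at 3 days Cd74 moved to 0.0049. With TMM, H2-Ab1 at 1 day under the lymph node label moved to -0.00397. With each library left out in turn, the change at 1 day under the spleen label ran from -0.0874 to 0.0354 for Cd74 and from -0.47 to -0.33 for H2-Oa, and that of H2-Eb1 at 3 days from -0.0642 to 0.14. Under the lymph node label at 1 day the ranges were -0.15 to 0.15 for H2-Ab1, -0.18 to 0.12 for H2-DMa, -0.0102 to 0.22 for H2-Eb1 and -0.0113 to 0.31 for H2-Oa, and at 3 days -0.0366 to 0.0547 for H2-Ab1. The cause of these differences was not tested. Leaving out libraries was added for the ratios after the data had been seen, and the change in H2-Oa/H2-Ob at 3 days then ran from -0.69 to -0.47. Replicate numbers were not treated as pairs, since same-numbered libraries had a median correlation of deviations of 0.036 (spleen) and -0.013 (lymph node). With the replicate block the count at 1 day under the spleen label was again 1 and that of every other comparison 0. Counts over all genes moved more. At 3 days under the spleen label limma called 1013, against 4722 with library weights, 140 with 2 groups, 572 without the filter and 1614 by DESeq2, and 514 of the 1013 were higher, against 736 of 1044 with TMM. DESeq2 called 537, 508 and 382 genes in the lymph node set, against 221, 226 and 144, and 588, 314 and 42 in the difference between labels, against 290, 126 and 24. Library weights gave 557 and 278 at 3 and 14 days in the lymph node set and 882 and 1944 in the difference at 1 and 3 days. No filter gave 139 at 1 day in the lymph node set and 151 in the difference at 1 day, the replicate block 132 at 1 day in the lymph node set and 79 in the difference at 3 days, and 2 groups 55 at 14 days in the lymph node set. In the difference at 1 day 139 of 290 were higher, and 191 of 321 with TMM. Where leaving out a library of the 2 at 1 day under the lymph node label left 1, that library was assumed to vary like the others.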
